A study of Mus musculus with 1 sample.

Results

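Dividing Sertoli cells (SCs) of the fetal mouse testis were described in 253 cell barcodes of 1 single-cell RNA library that held 5421 barcodes. The members were chosen by their own counts: a barcode had at least 1000 genes, at least 1 unique molecular identifier (UMI, a tag that marks 1 captured RNA molecule) for 6 or more of the 8 Sertoli genes *Amh*, *Sox9*, *Cst9*, *Aard*, *Tesc*, *Mro*, *Cldn11* and *Dhh*, at most 2 of the 6 germ cell genes *Dppa3*, *Dppa5a*, *Dazl*, *Ddx4*, *Pou5f1* and *Utf1*, less than 0.2% of its UMIs in *Cyp11a1*, *Cyp17a1*, *Star* and *Hsd3b1*, and at least 5 UMIs of *Mki67* and *Top2a* together. The same gate with at most 4 UMIs of *Mki67* and *Top2a* gave 702 barcodes, called non-dividing here, so that 955 Sertoli barcodes were compared. The library came from testis cells of 12 pooled controls, counted as whole testes in the text of the study, and labelled as embryonic day 14.5 (E14.5) and genotype WT. The methods of the study name E13.5 and E14.5 and give the controls as Nr5a1 L2/L2, that is, homozygous for a floxed allele of *Nr5a1*, without the Cre transgene that deletes it and without the yellow fluorescent protein reporter, on a mixed C57BL/6 and 129/SvPass background. Cells from mutant testes were not analysed here. The library held 72595083 UMIs, with 501 to 143197 UMIs and a median of 10766 UMIs in a barcode. There was 1 sample and no replicate, so no test between conditions was possible, and every interval given below is a 95% interval that covers counting error only.

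SCs are the supporting cells of the testis: they enclose the germ cells in cords, secrete anti-Müllerian hormone (AMH) and direct the development of the other cell types. In the fetus they still multiply, and the number of SCs laid down before puberty limits how many germ cells an adult testis can carry. A dividing cell copies its DNA in S phase with the MCM helicase, DNA polymerases and newly made histones, and in G2 and M phases switches on cyclin B and its kinase CDK1, the spindle and kinetochore proteins, and lastly the anaphase promoting complex, which degrades the cyclins. CDK inhibitors and pocket proteins hold cells out of this cycle. KI-67, encoded by *Mki67*, coats mitotic chromosomes and is present in cycling cells, and TOP2A, encoded by *Top2a*, untangles the DNA of sister chromosomes.

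*Mki67* and *Top2a* were the values that chose the members, and they are given as a description. The 253 dividing barcodes held 5 to 80 UMIs of both genes together, with a median of 19, whereas 537 of the 702 non-dividing barcodes held 0 and 95 held 1. Within the dividing barcodes *Mki67* (ENSMUSG00000031004; GRCm38 chromosome 7, as all positions here in that build, 135689784 to 135716361) had a median of 6 UMIs and *Top2a* (ENSMUSG00000020914; chromosome 11, 98992943 to 99024189) a median of 12. Both genes were present together in most of them: 15 had no *Mki67* UMI and 2 no *Top2a* UMI. Just below the threshold lay 25 barcodes with 3 UMIs and 21 with 4, and just above it 13 with 5 and 14 with 6. The summed share of the mitosis genes described below was 0.727% of UMIs at 3, 0.853% at 4, 0.767% at 5 and 0.761% at 6, and that of the replication genes 0.541, 0.578, 0.653 and 0.721%, higher with each UMI. The histogram of both genes shows no gap at the threshold.

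**Figure D1:**
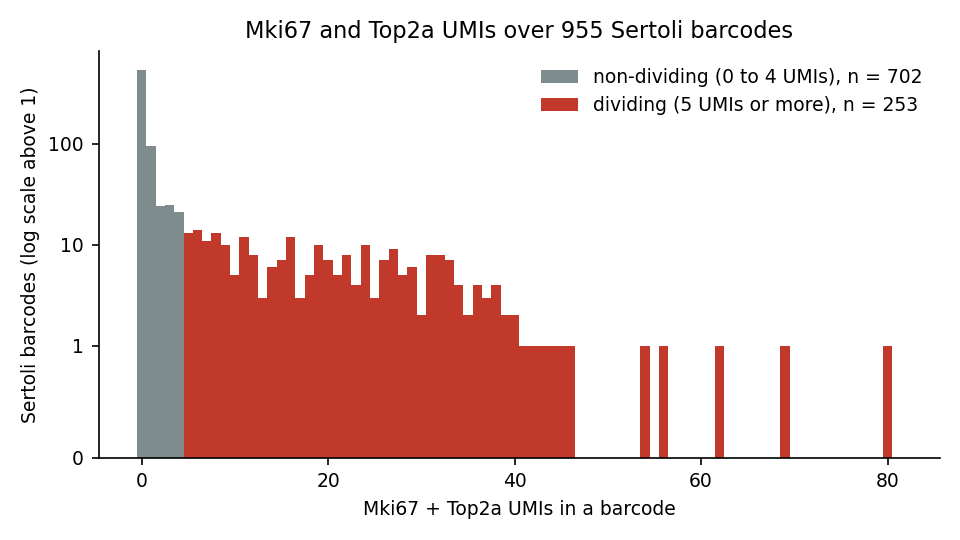
Number of Sertoli barcodes (vertical axis, log scale above 1) by their UMIs of *Mki67* and *Top2a* together (horizontal axis), with non-dividing barcodes in grey and dividing barcodes in red. The non-dividing bars are led by 537 barcodes at 0, and the dividing barcodes reach from 5 to 80 UMIs with no gap at the threshold.

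*Amh* and *Sox9* are part of the rule, and their levels are a description. *Amh*, with a UMI in 99.2% of them, had 1706 UMIs per 1000000 UMIs of the group (CPM). In the 2277 interstitial barcodes of the library (at least 5 of 8 interstitial markers and at most 2 Sertoli genes), of which 4.48% had a UMI, it had 3.97 CPM, and in the 288 germ cell barcodes (at least 4 of the 6 germ cell genes and at most 2 Sertoli genes), of which 13.2% had a UMI, 3.76 CPM. The median depth was 18898 UMIs in dividing Sertoli, 14266 in dividing interstitial, 9141 in non-dividing interstitial and 37301.5 in germ cell barcodes. *Sox9*, the transcription factor that commits the supporting lineage to the Sertoli fate, had a UMI in 96% and 275 CPM, against 11.8 CPM in interstitial and 1.52 CPM in germ cell barcodes. The interstitial and germ cell barcodes were limited to at most 2 Sertoli genes, so their low values of both genes follow from that choice and do not measure free RNA. All 8 Sertoli genes of the gate were present in 131 of the 253 barcodes, 7 in 105 and 6 in 17. The label was met by all 4 of its markers, *Amh*, *Sox9*, *Mki67* and *Top2a*, each of which was part of the rule.

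The promoters of 6 genes whose values are given here are shown because many genes of division carry the same short elements near their start. They are the genes of the gate, *Mki67* and *Top2a*, and *Cdk1*, *Plk1*, *Ube2c* and *Mcm5*, chosen after their motifs were seen. Each sequence is the RefSeq promoter (GRCm38.p6) from 250 bases before to 50 after the annotated start, in the direction of the gene, and capitals mark the letters searched on both strands: TTTGAA (the cell cycle genes homology region, CHR, known to be bound by the MuvB complexes) and its variant TTCGAA, the letters CCAAT (known to be bound by NF-Y), and for E2F the letters TTTCCCGC or TTTCGCGC or TTTGCCGC or TTTGGCGC. On the opposite strand the CHR reads TTCAAA in these lines and the NF-Y letters read ATTGG. Overlapping matches run together as capitals in *Ube2c* and *Mcm5*.
Mki67 (chr7:135716330-135716629, minus strand): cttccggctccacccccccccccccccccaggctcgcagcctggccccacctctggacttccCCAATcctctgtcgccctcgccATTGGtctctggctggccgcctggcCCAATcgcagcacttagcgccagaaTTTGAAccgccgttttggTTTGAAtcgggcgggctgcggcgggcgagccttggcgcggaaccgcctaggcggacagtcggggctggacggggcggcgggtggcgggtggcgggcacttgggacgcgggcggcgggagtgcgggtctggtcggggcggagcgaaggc
Top2a (chr11:99024140-99024439, minus strand): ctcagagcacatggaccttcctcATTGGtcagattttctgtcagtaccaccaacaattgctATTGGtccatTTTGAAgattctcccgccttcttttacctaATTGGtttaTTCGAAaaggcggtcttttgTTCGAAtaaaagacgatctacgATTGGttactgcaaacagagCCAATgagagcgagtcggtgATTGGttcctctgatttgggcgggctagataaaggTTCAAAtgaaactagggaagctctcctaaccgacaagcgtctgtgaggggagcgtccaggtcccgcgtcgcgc
Cdk1 (chr10:69352863-69353162, minus strand): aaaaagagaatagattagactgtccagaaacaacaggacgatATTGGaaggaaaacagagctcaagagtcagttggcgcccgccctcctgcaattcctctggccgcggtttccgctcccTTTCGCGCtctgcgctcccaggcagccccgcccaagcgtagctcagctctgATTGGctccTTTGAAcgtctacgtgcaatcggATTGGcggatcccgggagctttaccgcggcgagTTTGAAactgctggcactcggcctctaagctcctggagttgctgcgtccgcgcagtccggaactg
Plk1 (chr7:122159185-122159484, plus strand): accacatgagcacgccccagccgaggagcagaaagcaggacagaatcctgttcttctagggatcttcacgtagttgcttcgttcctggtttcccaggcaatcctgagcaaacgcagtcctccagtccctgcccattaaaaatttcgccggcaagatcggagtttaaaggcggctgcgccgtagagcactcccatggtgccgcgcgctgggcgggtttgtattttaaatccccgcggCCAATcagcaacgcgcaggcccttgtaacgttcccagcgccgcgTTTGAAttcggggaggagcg
Ube2c (chr2:164769679-164769978, plus strand): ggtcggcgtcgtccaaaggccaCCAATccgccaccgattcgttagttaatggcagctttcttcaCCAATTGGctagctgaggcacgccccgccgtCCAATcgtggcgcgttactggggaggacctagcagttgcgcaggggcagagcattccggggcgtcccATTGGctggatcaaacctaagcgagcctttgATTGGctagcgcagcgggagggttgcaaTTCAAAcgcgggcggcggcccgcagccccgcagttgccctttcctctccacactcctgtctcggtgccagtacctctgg
Mcm5 (chr8:75109259-75109558, plus strand): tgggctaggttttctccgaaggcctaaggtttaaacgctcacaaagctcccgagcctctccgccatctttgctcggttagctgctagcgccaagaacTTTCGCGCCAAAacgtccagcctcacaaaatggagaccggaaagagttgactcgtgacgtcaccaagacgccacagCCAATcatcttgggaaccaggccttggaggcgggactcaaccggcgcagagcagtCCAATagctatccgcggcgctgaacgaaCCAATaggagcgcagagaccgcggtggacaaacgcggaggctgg

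In these windows the CHR letters nearest to the start lay at -23 to -18 in *Top2a*, -15 to -10 in *Cdk1*, -29 to -24 in *Ube2c* and 30 to 35 in *Plk1*, in bases from the annotated start. *Mki67* had the CHR letters at 2 places and CCAAT at 3, *Top2a* had CCAAT at 6 places, and *Mcm5*, a subunit of the replicative helicase, had overlapping E2F letters and no CHR. Of 80 genes of 4 mitosis lists (regulators from S phase to mitosis, kinetochore, spindle, and checkpoint, each described below), 67 matched a RefSeq promoter. Of these 59.7% held TTTGAA at any start, against 13.9% of 6779 matched genes of all 8389 genes tested and 20.2% of all 27025 genes with a promoter. CCAAT was held by 71.6% of the mitosis genes, against 43.3% of the genes tested and 41.1% of all 27025 genes. Both CCAAT and a CHR or its variant were held by 55.2% of the mitosis genes, against 6.95% and 8.61%. Of 53 replication genes, 43 matched, and 39.5% of them held E2F letters, against 8.96% of the mitosis genes, 5.35% of the genes tested and 2.6% of all 27025 genes. TTTGAA was held by 18.6% of the replication genes. A match of letters is a description of sequence, and no binding was measured. For the Sertoli lists 78 of 112 genes matched a promoter, fewer than 80%, so their shares are not given.

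Of the 955 Sertoli barcodes, 26.5% were dividing by this rule (interval 23.7 to 29.4%), against 29.4% of the 2277 interstitial barcodes of the same library (27.6 to 31.3%). Dividing barcodes were deeper: their median was 18898 UMIs and 4828 genes, against 13503.5 UMIs and 3857 genes in the non-dividing barcodes. The share moved with depth, from 8.54% of 445 Sertoli barcodes at 10000 to 15000 UMIs to 35.6% of 264 at 15000 to 20000, 72.8% of 114 at 20000 to 30000 and 88.5% of 26 above. The interstitial share at these depths was 39.4, 62.9, 72.7 and 80.7%, and it was 11.1% of 90 barcodes below 5000 UMIs and 7.13% of 996 from 5000 to 10000. Among shallower Sertoli barcodes it was 15.4% of 26 below 5000 UMIs and 13.8% of 80 from 5000 to 10000. When each barcode was thinned to 10000 UMIs, which left out 106 shallower Sertoli and 1086 interstitial barcodes, 24.4% of 849 Sertoli barcodes (21.5 to 27.4%) and 44.1% of 1191 interstitial barcodes (41.2 to 47%) still had 5 or more UMIs of *Mki67* and *Top2a*. The part of depth in these shares was not tested beyond this thinning.

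Some barcodes of the gate also carried RNA of other cell types. Of 8 interstitial markers, among them *Nr2f2*, *Pdgfra*, *Tcf21* and *Col3a1*, 130 of the 253 dividing barcodes had a UMI of none, but 28 (11.1%) had more than 2, against 55 (7.83%) of the non-dividing barcodes. These 28 barcodes were deep, with a median of 26871.5 UMIs. Hemoglobin RNA made up more than 1% of the UMIs in 5 dividing and 3 non-dividing barcodes. The summed level of the 8 interstitial markers, led by *Col3a1*, was 509 CPM in dividing and 324 CPM in non-dividing barcodes, and that of 8 erythroid markers, led by *Hbb-bs*, was 5162 and 2144 CPM. Of 8 peritubular myoid markers, led by *Acta2*, the sums were 237 and 98.1 CPM, and of 8 endothelial markers, led by *Pecam1*, 82.8 and 32.6 CPM. Without the barcodes with more than 2 interstitial markers or more than 1% hemoglobin, a choice made after the data were seen, 223 dividing and 644 non-dividing barcodes were left, and the same sums were 30.2 and 35.1 CPM for interstitial, 224 and 245 CPM for erythroid, 66.7 and 59.7 CPM for peritubular myoid and 27.4 and 31 CPM for endothelial markers. Germ cell markers (36 and 34.4 CPM) and immune markers (2.36 and 4.41 CPM) were low in both groups before that choice, with *Ptprc*, *Csf1r*, *C1qa*, *C1qc* and *Tyrobp* at 0 in the dividing barcodes. The sums of 5 rete testis markers, led by *Krt7*, were 9.83 and 22.8 CPM, and 8.88 and 22 CPM without the mixed barcodes. A score for doublets (barcodes that hold 2 cells) marked 25 dividing (9.88%) and 39 non-dividing barcodes (5.56%), of which 24 and 38 also had more than 2 interstitial markers. Values below are of all 955 barcodes. The value without the mixed barcodes stands beside some genes of the cycle and Sertoli lists, among them genes that it moves across 1.5-fold.

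Across all genes measured, those higher in dividing barcodes outnumbered those lower. Of 8389 genes with at least 10 CPM over all Sertoli barcodes, the 20 genes of the rule left out, 653 (7.78%) were at least 1.5-fold higher in dividing barcodes and 218 (2.6%) at least 1.5-fold lower. The median ratio of all 8389 genes was 1.03. The level of 10 CPM was taken over both groups together, so some genes passed it only through the group where they were higher. This filter in part shaped the counts of higher and lower genes, here and in the lists that follow. Without the mixed barcodes the counts were 640 of 8278 higher (7.73%) and 257 lower (3.1%). The counts of the same barcodes had chosen both groups, so these ratios and all list counts that follow are a description of 1 library, with no test. Genes of mitosis lay far above the rest, genes of DNA replication moderately above, and most genes of the Sertoli programme near 1, as the plot of ratio against level shows.

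**Figure D2:**
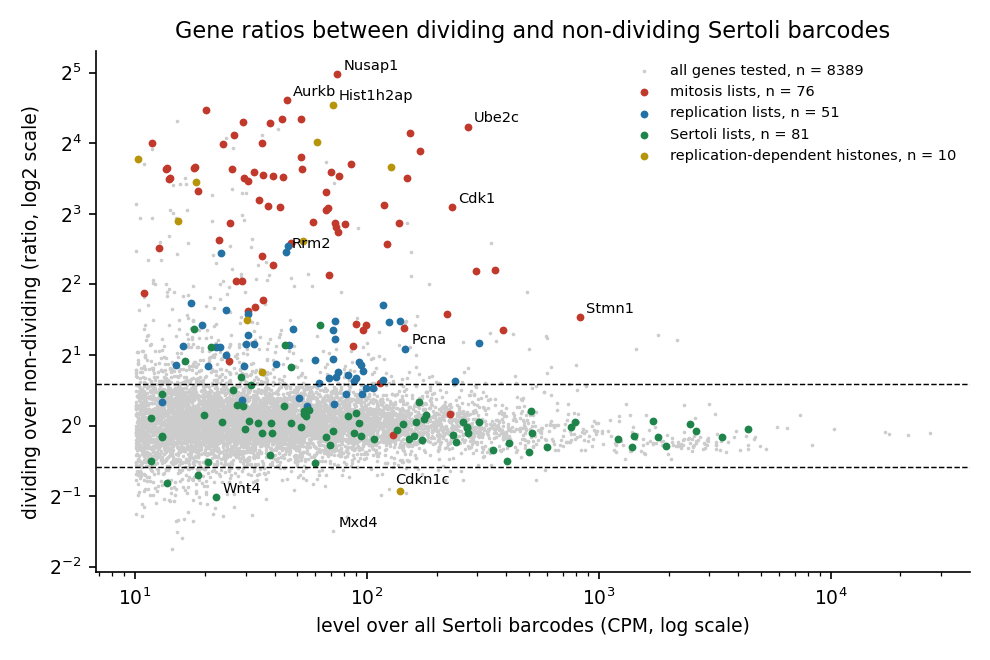
Ratio of the level in dividing over non-dividing Sertoli barcodes (vertical axis, log2 scale) against the level over all Sertoli barcodes (horizontal axis, CPM, log scale) for 8389 genes, with the gene lists in colour and dashed lines at 1.5-fold. Mitosis genes (red) lie highest, up to *Nusap1*, replication genes (blue) lie lower, and Sertoli genes (green) lie near 1.

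The regulators that carry a cell from S phase to mitosis were higher in all members measured: 15 of the 18 genes of this list passed the level of 10 CPM, and all 15 were at least 1.5-fold higher, with a median ratio of 8.52 against 1.03 for all genes and a share of 7.78% higher among all genes. Some of the 15, such as *Ccnb1* and *Plk1*, were under 10 CPM in non-dividing barcodes and passed that level through the dividing ones. *Cdk1* (ENSMUSG00000019942; chromosome 10, 69335146 to 69352938), the kinase that drives entry into mitosis, had 549.7 CPM (529.5 to 570.5) in dividing and 64.5 CPM (59.5 to 69.8) in non-dividing barcodes, and a UMI in 97.2% and 43% of them. Its ratio was 8.52 (7.81 to 9.32). *Ccnb1* (chromosome 13, 100778650 to 100786570), its cyclin B partner, had 132 and 9.45 CPM, a ratio of 13.9. *Ccna2*, the cyclin of S and G2 phases, had 132 and 10.6 CPM, a ratio of 12.4. *Plk1* (chromosome 7, 122159439 to 122169873), a kinase of centrosomes and the spindle, had 100.1 CPM (91.6 to 109) and 5.15 CPM (3.81 to 6.8), a ratio of 19.4 (14.5 to 26.6). *Ccnf*, a cyclin that marks proteins for degradation, had the largest ratio of the list, 22.1 (14.4 to 35.5), from 272 UMIs in the dividing and 23 in the non-dividing barcodes. The smallest was that of *Wee1*, the kinase that restrains CDK1, at 2.18 (1.95 to 2.44). *Foxm1* and *Lin54*, transcriptional regulators of this set of genes, had ratios of 11.4 and 3.67.

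Kinetochore and spindle genes had the largest median ratios of the cycle lists. In the list of the chromosome passenger complex and the kinetochore, 16 of 17 genes were higher, with a median ratio of 11.4, and in that of the spindle, kinesins and cytokinesis all 26 of 26, with a median of 9.97. The share higher among all genes was 7.78%. Here too some genes, such as *Nusap1* and *Aurkb*, passed the level filter only through the dividing barcodes. *Nusap1* (ENSMUSG00000027306; chromosome 2, 119618298 to 119651244), which binds spindle microtubules, had 201.5 CPM (189 to 214) in dividing and 6.41 CPM (4.9 to 8.23) in non-dividing barcodes and the largest ratio of both lists, 31.5 (24.3 to 41.4). *Aurkb* (chromosome 11, 69045647 to 69051664), the kinase of the chromosome passenger complex, had 120.3 and 4.94 CPM, a ratio of 24.4 (18.1 to 33.5). The mitotic kinesin *Kif11* and the midzone kinesin *Kif4* had ratios of 20.3 and 19.7, and *Prc1*, which bundles the microtubules of the spindle midzone, 398 and 22.5 CPM and a ratio of 17.7. *Cenpf*, a large kinetochore protein, had 431 and 29.1 CPM, a ratio of 14.8. The exception was *Zwint* (chromosome 10, 72654845 to 72674964), a kinetochore gene with 246 CPM in dividing and 219 CPM in non-dividing barcodes, a ratio of 1.12 (1.04 to 1.2), and a UMI in 89.7% of non-dividing barcodes. The smallest ratios among spindle genes were those of genes with a wider use, *Tuba1c* (2.55), *Ckap5* (2.71) and *Stmn1* (2.9).

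Genes of chromosome structure, of checkpoints and of the anaphase promoting complex were also higher. Of 20 genes of condensin, cohesin and chromosome structure, 18 passed 1.5-fold (90%, beside 7.78% of all genes), with a median ratio of 2.27. Among condensin subunits *Ncapg* had a ratio of 15.3, *Ncapd2* 5.84, *Ncaph* 5.77, *Smc4* 5.5, *Smc2* 4.37, *Ncapg2* 3.73, *Ncapd3* 2.07 and *Ncaph2* 1.62. The cohesin subunit *Smc3* (1.46) did not reach the threshold, but had 1.502 (1.38 to 1.63) without the mixed barcodes, where 19 of the 20 passed. *H2az1*, a histone variant, had 3470 CPM (3419 to 3521) against 1491 CPM (1466 to 1515), a ratio of 2.33 (2.28 to 2.38), and *Hmgb2*, a chromatin protein, had 753 and 125 CPM, a ratio of 6.03. Among checkpoint and anaphase promoting complex genes 17 of 18 were higher (94.4%, beside 7.78% of all genes), with a median ratio of 4.14. This list is not limited to the spindle checkpoint: it also holds *Brca1* (3.42), *Brca2* (3.08), *Chek1* (1.89) and *Chek2* (3.08), genes of DNA damage checkpoints and repair. *Ube2c* (chromosome 2, 164769898 to 164778822), which feeds ubiquitin to the anaphase promoting complex, had 713 CPM (690.2 to 737) and 37.8 CPM (34 to 41.9), a ratio of 18.9 (16.9 to 21.1). The spindle checkpoint kinases *Bub1* (12.4), *Bub1b* (11.7) and *Ttk* (12.7) had similar ratios. *Anapc13*, a core subunit of the complex, had a ratio of 0.915 (0.83 to 1.01).

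Over the 4 mitosis lists together (80 genes, without *Mki67*, *Top2a* and the list of chromosome structure), the dividing barcodes held 1.38% of their UMIs (1.37 to 1.39%) and the non-dividing ones 0.288% (0.284 to 0.291%), a ratio of 4.78 (4.72 to 4.85). The DNA damage genes *Brca1*, *Brca2*, *Chek1* and *Chek2* are included in these lists. A dividing barcode had UMIs of 22 to 74 of these 80 genes, with a median of 62, and a non-dividing barcode of 0 to 61, with a median of 14. The groups overlapped: the share ran from 0.359 to 2.57% with a median of 1.35% in dividing barcodes, and from 0 to 2.43% with a median of 0.207% in non-dividing ones. Of the non-dividing barcodes, 26 had a mitosis share above the median of the dividing barcodes. These 26 had 1796 to 16415 UMIs, 11 of them under 10000, and 5 had no UMI of *Mki67* or *Top2a*.

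Replication genes differed less. Of the list of origin licensing and the MCM helicase, 10 of 15 genes measured were at least 1.5-fold higher, with a median ratio of 1.59, of DNA synthesis and nucleotide supply 23 of 26, with a median of 2.14, and of chromatin assembly and DNA methylation upkeep 9 of 10, with a median of 2.02. No gene of the 3 lists was lower by that fold. Among all genes measured 7.78% were higher and 2.6% lower. In the synthesis list 24 of 26 passed without the mixed barcodes, since *Rfc1*, a subunit of the clamp loader, went from 1.45 to 1.53 (1.36 to 1.71). *Pcna* (chromosome 2, 132249162 to 132253314), the sliding clamp of DNA polymerase, had 224 CPM (211 to 238) in dividing and 105 CPM (98.9 to 112) in non-dividing barcodes, a ratio of 2.13 (1.95 to 2.32), and a UMI in 58% of the non-dividing barcodes. *Rrm2* (chromosome 12, 24708241 to 24714146), the regulated subunit of ribonucleotide reductase, had 95.7 and 17.4 CPM, a ratio of 5.49 (4.6 to 6.59), and *Tk1*, thymidine kinase, 99.7 and 17 CPM, a ratio of 5.86 (4.9 to 7.04). Among the licensing genes the helicase subunits *Mcm2* (1.32), *Mcm4* (1.22), *Mcm6* (1.36) and *Mcm7* (1.44) did not reach 1.5-fold, *Mcm3* (1.59) and *Mcm5* (1.59) did so narrowly, and *Mcm10* (3.34), *Gmnn* (2.79) and *Cdc45* (2.69), which act later at the fork or block relicensing, had larger ratios. *Asf1b* (5.42), a histone chaperone, had the largest ratio of the chromatin list, and *Dnmt1* (2.34) and *Uhrf1* (2.57) maintain DNA methylation on copied strands. Together the 3 lists held 0.523% (0.517 to 0.529%) and 0.267% (0.264 to 0.271%) of UMIs, a ratio of 1.96 (1.92 to 1.99).

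Genes of entry into the cycle lay on both sides of 1. Of 14 G1/S cyclins and activators, 10 were measured and 3 were higher (30%, beside 7.78% of all genes measured): *E2f1* (2.05), *E2f3* (1.62, and 1.35 with at least 10 UMIs of *Mki67* and *Top2a*) and *Cdk2* (1.55). *E2f2*, an activating E2F factor, was under 10 CPM over all Sertoli barcodes, with 9.44 and 2.21 CPM, a ratio of 4.28 (2.51 to 7.52), and 5.07 (2.78 to 9.70) without the mixed barcodes. *Cdk4*, the kinase of G1, had 415 and 379 CPM, a ratio of 1.09 (1.04 to 1.15). Its partner *Ccnd2*, cyclin D2, had 317 CPM (302 to 333) in dividing and 404.5 CPM (391.9 to 417.5) in non-dividing barcodes, a ratio of 0.784 (0.739 to 0.831). *Ccnd1* (8.45 and 11.1 CPM) was low in both. *Ccne1* and *Ccne2*, the cyclins E, were under 10 CPM over all Sertoli barcodes, with 9.04 and 9.44 CPM in dividing barcodes and 4.62 and 4.41 CPM in non-dividing ones.

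The list of CDK inhibitors and pocket proteins lay on both sides. It also holds other genes linked to arrest: *Trp53*, *Btg1*, *Btg2*, *Tob1*, *Tob2*, *Ccng1* and *Ccng2*. Of its 18 genes 13 were measured, with 4 higher (30.8%, beside 7.78% of all genes), 2 lower (15.4%, beside 2.6%) and a median ratio of 0.936. *Cdkn1c* (ENSMUSG00000037664; chromosome 7, 143458339 to 143461050), the imprinted CDK inhibitor p57, had 79.8 CPM (72.2 to 88) in dividing and 148 CPM (141 to 156) in non-dividing barcodes, a ratio of 0.538 (0.481 to 0.602), and 0.406 without the mixed barcodes. Among barcodes with all 8 Sertoli genes of the gate the ratio was 0.721, within 1.5-fold. A UMI of it was seen in 45.1% and 50.3% of barcodes, and in 31.9% and 45.5% after thinning to 10000 UMIs. *Tob1*, an antiproliferative protein of the BTG family, had 11 and 23.5 CPM, a ratio of 0.468 (0.343 to 0.63), whereas its relatives *Btg1* (0.784) and *Btg2* (0.936) stayed within 1.5-fold. *Cdkn1b*, the inhibitor p27, had 30.5 and 24.6 CPM, a ratio of 1.24. The 4 higher genes were *Cdkn3* (5.82), *Rbl1* (2.87), *Ccng2* (2.2) and *Cdkn2d* (1.9). *Cdkn2c*, with 17.9 CPM in dividing and 1.37 CPM in non-dividing barcodes, was under 10 CPM over all Sertoli barcodes.

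Replication-dependent histone genes are transcribed in S phase. Of 18 listed histone genes 10 were measured, with 9 higher (90%, beside 7.78% of all genes), 1 lower (beside 2.6%) and a median ratio of 9.2. Most of their messages end in a stem loop and not in a poly(A) tail, and the library was primed on poly(A), so these values cover the polyadenylated part only. *H1f5* had 317 and 25.1 CPM, a ratio of 12.6 (11 to 14.5), *Hist1h2ap* 189 and 8.09 CPM, a ratio of 23.4 (18.5 to 29.9), and *H2ac8* 157 and 9.66 CPM, a ratio of 16.3 (13.1 to 20.4). *H2bc4* (ENSMUSG00000018102; chromosome 13, 23684199 to 23692908) went the other way, with 87.3 CPM (79.4 to 95.8) in dividing and 167 CPM (159 to 175) in non-dividing barcodes, a ratio of 0.524 (0.47 to 0.582). Many core histone genes are close copies of each other, so their reads could be lost or placed on the wrong copy, and single members are uncertain. The H1 genes are more distinct variants.

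Within the dividing barcodes, the shares of replication and mitosis genes ran in opposite directions, although each barcode held UMIs of at least 22 of the 80 mitosis and 9 of the 53 replication genes. Each barcode's share of replication genes ran from 0.128 to 1.11% with a median of 0.49%, and its share of mitosis genes was lower where that of replication genes was higher. Over the 253 barcodes Spearman's rho was -0.585 and Pearson's r -0.611, given as a description, since the barcodes share 1 library and both shares have the same total. Neither share followed depth closely (rho with UMIs 0.167 for mitosis and -0.166 for replication). The plot of both shares shows an arc, from barcodes rich in replication genes with few mitosis genes to barcodes rich in mitosis genes with few replication genes.

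**Figure D3:**
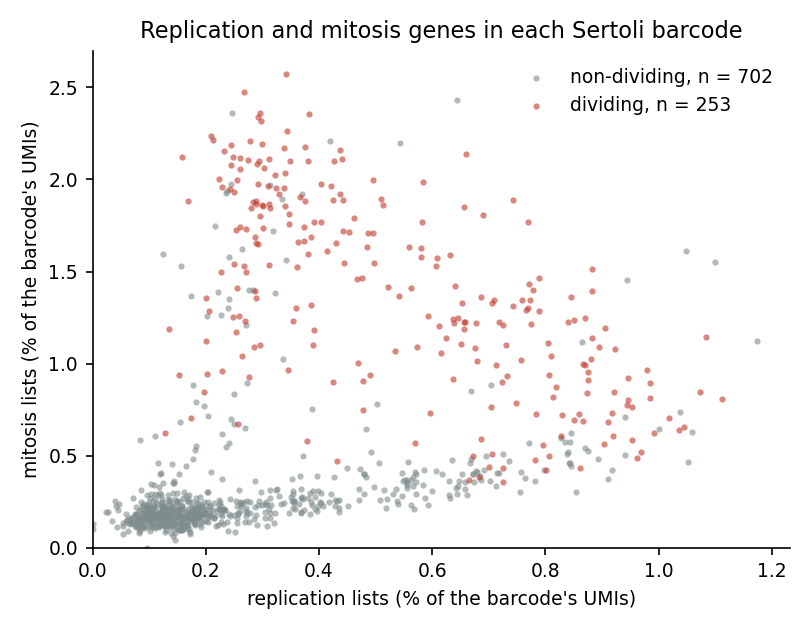
Share of mitosis genes (vertical axis, % of UMIs) against share of replication genes (horizontal axis, % of UMIs) in each of 253 dividing (red) and 702 non-dividing (grey) Sertoli barcodes. Most grey points lie in the lower left corner, a grey tail runs to the right along the bottom, and the red points form an arc from the lower right to the upper left.

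Of the 702 non-dividing barcodes 102 (14.5%) had a replication share above the median of the dividing ones, 0.49%, and 5 of these 102 also had a mitosis share above the median of the dividing ones. Of these 102, 38 had no UMI of *Mki67* or *Top2a* and 64 had 1 to 4, and their median mitosis share was 0.402%. The rule on *Mki67* and *Top2a* thus left barcodes with much replication RNA in the non-dividing group, and 579 of the 702 lay at or below both medians. Strata of *Mki67* and *Top2a* UMIs are cut on the values that chose the members, so they are a description only. Their median depth rose from 13310 UMIs at 0 to 21646 at 20 or more. From 0 UMIs through 1 to 2, 3 to 4, 5 to 9, 10 to 19 and 20 or more, the replication share was 0.216, 0.369, 0.558, 0.686, 0.533 and 0.47%, highest at 5 to 9 UMIs. The mitosis share was 0.217, 0.39, 0.785, 0.799, 1.46 and 1.51%. With the 537 barcodes at 0 UMIs as the base in place of all 702, the ratio of the replication lists was 2.43 and that of the mitosis lists 6.35.

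The dividing barcodes were then ordered by the replication part of their cycle UMIs and split into 4 groups of 64, 63, 63 and 63, from the highest to the lowest part. The replication and mitosis genes fixed this order, so their values describe it: *Pcna* went from 416 to 332, 108 and 56.9 CPM, and *Ube2c* from 139 to 414, 884 and 1378 CPM. Not every gene of the mitosis lists rose: *Brca1*, of the checkpoint list, had 98.9 CPM in the first group and 50.6 CPM in the last. The genes that follow were not part of the order. *H1f5* had 296 CPM in the first group, 473 (437 to 512) in the second, 288 in the third and 207 (183 to 234) in the last, and *Hist1h2ap* had 157, 296, 179 and 119 CPM. Both histones were highest in the second group, with intervals apart from those of the others. Of the other measured histones, *H1f1*, *H1f3*, *H1f4*, *H2ac8* and *H4c9* were also highest in the second group, *H1f2* and *H4c4* in the third and *H2bc4* in the last. The share of all measured genes that were highest in the second group was not counted, so this pattern is not shown to be particular to histones. The interval of the highest group overlapped that of the next for *H1f1*, *H1f3*, *H4c9*, *H1f2*, *H4c4* and *H2bc4*. *H2bc4* had 13.52, 24.6, 152 and 152.5 CPM, and *H1f2* had 26.2, 45.3, 68.2 and 49.8 CPM. *Mki67* had 153 CPM in the first group (131.5 to 177) and 400.5, 425 and 449 CPM in the rest, and *Top2a* had 449.5, 770.3, 714 and 661.5 CPM. *H2az1* had 3314, 3597, 3498 and 3455 CPM, the 4 values lying close together. *Cdkn1c* had 74.4, 143.5, 53.2 and 47.4 CPM, but markers of other cell types also differed between the groups: the 8 endothelial markers summed to 30.4, 235.5, 30 and 30 CPM, the 8 peritubular myoid markers to 182.5, 364, 238 and 159 CPM, the 8 interstitial markers to 689, 533, 510 and 315 CPM, and the 8 erythroid markers to 223, 5336, 2111 and 12819 CPM. Without the mixed barcodes, which left 58, 55, 54 and 56, *Cdkn1c* had 60.2, 77.1 (61 to 96.3), 50.5 and 45.1 CPM, with the first interval (45.9 to 77.7) overlapping the second. *H1f5* then had 324, 566, 300 and 197 CPM and *Hist1h2ap* 165, 316, 193 and 114 CPM, both still highest in the second group. The endothelial sums were then 19.4, 29.7, 29.4 and 30.4 CPM. The peritubular myoid sums were 45.9 (33.5 to 61.5), 55.4, 83.6 (67.3 to 102.6) and 79.1 CPM, with the interval of the first group apart from that of the third. *Aard*, a Sertoli gene of the gate, had 2099 CPM (2017 to 2183) in the first group and 1195 CPM (1136 to 1257) in the last, whereas *Amh* had 1897, 1619, 1734 and 1589 CPM.

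**Figure D4:**
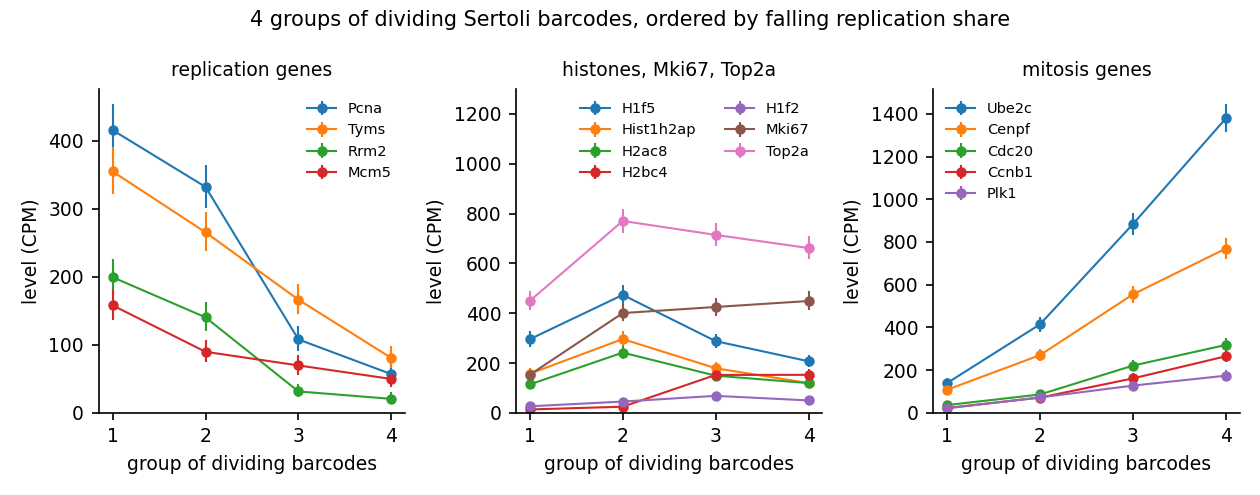
Level (vertical axis, CPM, with 95% Poisson intervals) of replication genes, of histones with *Mki67* and *Top2a*, and of mitosis genes in 4 groups of dividing Sertoli barcodes (horizontal axis) ordered by falling replication part of the cycle UMIs. Replication genes are highest in group 1, *H1f5*, *Hist1h2ap* and *H2ac8* in group 2, *H1f2* in group 3 and mitosis genes in group 4, *H2bc4* is high in groups 3 and 4, and *Mki67* is lowest in group 1.

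The summed Sertoli programme stayed within 1.5-fold, and its direction moved with depth. Over 5 Sertoli lists (112 genes) the dividing barcodes held 3.12% of UMIs (3.11 to 3.14%) and the non-dividing ones 3.33% (3.31 to 3.34%), a ratio of 0.939 (0.933 to 0.944), and 0.96 without the mixed barcodes. From below 10000 through 10000 to 15000, 15000 to 20000, 20000 to 30000 and 30000 UMIs or more, the ratio was 0.881, 0.935, 1.02, 1.15 and 0.949. The dividing barcodes were thus above the non-dividing ones in the middle depths, which held 94 and 83 of the 253. Among transcription factors 14 were measured, with a median ratio of 0.963. *Wt1* (0.98), *Gata4* (0.905), *Gata6* (0.903), *Nr5a1* (0.945), *Dmrt1* (1.03) and *Sox8* (0.823) stayed within 1.5-fold, and *Sox10* was the smallest at 0.698 (0.535 to 0.903). The 3 transcription factors past 1.5-fold (21.4%, beside 7.78% of all genes), *Tcf21* (2.21), *Lhx9* (1.89) and *Nr2f2* (1.78), are also expressed in the interstitium. *Tcf21* and *Nr2f2* are among the 8 interstitial markers by which the mixed barcodes were chosen, so their fall without these follows in part from that choice. The ratios of the 3 were then 0.836, 1.24 and 0.537, and each gene was under 10 CPM. None of the 11 transcription factors then measured passed 1.5-fold in either direction, beside 7.73% higher and 3.1% lower among all genes of that set. With 11 genes this is near the share of all genes.

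Of 25 hormones and secreted signals 12 were measured, with 1 higher (8.33%, near the 7.78% of all genes) and 2 lower (beside 2.6%). The median ratio was 0.947. *Wnt4* (ENSMUSG00000036856; chromosome 4, 137277489 to 137299726), a signal of the ovarian pathway, had 13.4 CPM (10.4 to 16.9) in dividing and 27.1 CPM (23.9 to 30.6) in non-dividing barcodes, a ratio of 0.493 (0.372 to 0.647), and *Fgf9*, which promotes the Sertoli fate, had 9.24 and 16.2 CPM, a ratio of 0.571 (0.403 to 0.797). Without the mixed barcodes *Wnt4* had 4.08 and 13.6 CPM and *Fgf9* 9.36 and 17 CPM. The higher gene was *Ptn*, pleiotrophin, with a ratio of 2.69, with 1.71 without the mixed barcodes and 1.14 without barcodes scored as doublets. The inhibin subunits *Inha* (0.926) and *Inhbb* (1.07), the stem cell factor *Kitl* (0.907), the niche factor *Gdnf* (1.02) and the growth factor *Pdgfa* (0.842) stayed within 1.5-fold.

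Enzymes, cystatins and defensins, the most heavily read Sertoli genes, stayed near 1 as well. Of 22 measured none was higher by 1.5-fold (beside 7.78% of all genes) and 1 was lower (beside 2.6%), with a median ratio of 0.898. *Ctsl*, the protease cathepsin L, had 4281 and 4446 CPM, a ratio of 0.963 (0.947 to 0.979), *Clu*, clusterin, 2531 and 2667 CPM (0.949), and *Ptgds*, the prostaglandin D2 synthase induced by SOX9, 1699 and 2077 CPM (0.818). The lower gene was *Ptges*, a prostaglandin E synthase, with 13.4 and 21.6 CPM, a ratio of 0.618 (0.463 to 0.817), which came to 0.669 at 10000 to 30000 UMIs and 0.757 with all 8 Sertoli genes, both within 1.5-fold. Next to it stood *Cst8*, a cystatin, with 314 and 446 CPM, a ratio of 0.704 (0.664 to 0.746). Of 19 measured junction and adhesion genes 1 (5.26%, beside 7.78% of all genes) was higher, *Cdh11* (2.17). It had 1.52 from under 10 CPM without the mixed barcodes, and 0.778 without barcodes scored as doublets. The median ratio of the 19 was 1.02. The median was 0.995 without the mixed barcodes, and the gene past 1.5-fold was *Nectin3*, an adhesion molecule, with 40.6 and 26.6 CPM, a ratio of 1.52 (1.24 to 1.87), against 1.49 (1.23 to 1.79) with them. The laminin receptor subunit *Itga6* had 562 and 485 CPM, a ratio of 1.16 (1.11 to 1.21), and the connexin *Gja1* 0.854. Of 14 cord basement membrane genes *Fn1* (2.59) and *Bgn* (1.61) passed (14.3%, beside 7.78% of all genes), and without the mixed barcodes they had ratios of 1.28 and 0.246 at 2.88 and 0.96 CPM in dividing barcodes. *Sparc*, with 2511 and 2470 CPM, had a ratio of 1.02. Of 15 receptors of insulin, FSH, thyroid hormone and related signals *Notch1* passed (1.51, and 1.32 without the mixed barcodes), or 6.67%, near the 7.78% of all genes. The AMH receptor *Amhr2* had a ratio of 0.766 (0.716 to 0.819), the thyroid hormone receptor *Thra* 1 and the insulin-like growth factor receptor *Igf1r* 1.17.

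The 8 Sertoli genes of the gate are given as a description, since at least 6 of them had to be present. *Aard* was the furthest from 1, with 1595 CPM in dividing and 2679 CPM in non-dividing barcodes, a ratio of 0.595 (0.58 to 0.61), and it had a UMI in 100% of both groups. *Sox9* had 275 and 349 CPM, a ratio of 0.788, *Cst9* 1656 and 2074 CPM, a ratio of 0.798, and *Amh* 1706 and 1958 CPM, a ratio of 0.871. *Dhh*, the hedgehog signal of SCs, had a ratio of 0.852, *Mro* 0.829, *Tesc* 1.02 and *Cldn11* 1.08. Without the mixed barcodes *Aard* had a ratio of 0.611, *Sox9* 0.817 and *Amh* 0.895.

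Dividing interstitial barcodes of the same library were the nearest comparison. They were split by the same rule on *Mki67* and *Top2a* into 670 dividing and 1607 non-dividing barcodes. The doublet score marked 39 of the dividing (5.82%) and 9 of the non-dividing ones (0.56%), and the part of these barcodes in the interstitial ratios was not tested. Of 8412 genes tested there, 587 (6.98%) were at least 1.5-fold higher in dividing barcodes and 172 (2.04%) lower. The mitosis lists had a summed ratio of 4.46 (4.42 to 4.51), against 4.78 in SCs, and the replication lists 1.91 (1.89 to 1.93), against 1.96. Dividing SCs held 0.984 times the mitosis share of dividing interstitial barcodes (0.975 to 0.992) and 0.929 times their replication share (0.916 to 0.943). The histone list stood further apart, with a summed ratio of 3.95 (3.77 to 4.13) in SCs and 9.34 (8.98 to 9.72) in interstitial barcodes, as the plot of list ratios shows. *H2bc4*, the member that was lower, made up 167 of the 296 CPM of the non-dividing Sertoli sum, and without it, a choice made after the data were seen, the ratios were 8.37 (7.86 to 8.91) in SCs and 14.4 (13.8 to 15.2) in interstitial barcodes. *Cdkn1c* had a ratio of 0.538 in SCs and 0.871 in interstitial barcodes, *E2f1* 2.05 and 1.15, and *Ccnd2* 0.784 and 0.618. With 1 library no difference between the cell types was tested.

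**Figure D5:**
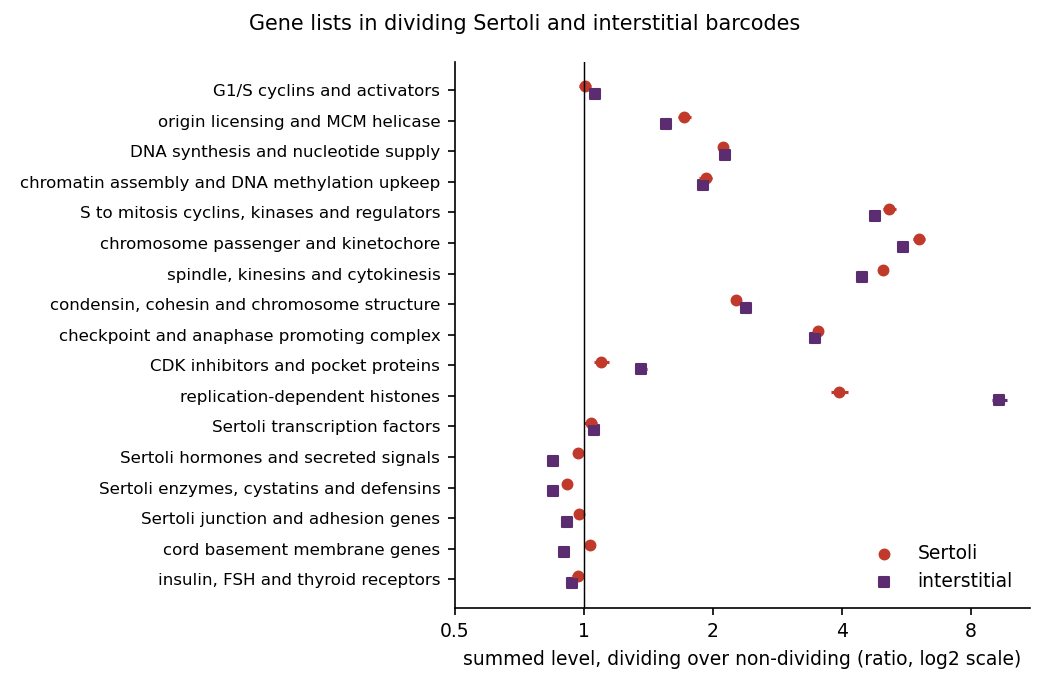
Summed level of each gene list, dividing over non-dividing barcodes (horizontal axis, ratio, log2 scale), in Sertoli barcodes (red circles) and interstitial barcodes (purple squares), with 95% counting intervals as lines that are often hidden by the symbols. The 4 mitosis lists lie between 3.46 and 6.07 in both cell types, histones at 3.95 in Sertoli and 9.34 in interstitial barcodes (8.37 and 14.4 without *H2bc4*), and Sertoli lists near 1.

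Outside the lists, some genes at 20 CPM or more had ratios as large as those of the mitosis lists. *Esco2* (18.4), an acetyltransferase of cohesin, *Cdca2* (17.4), *Pimreg* (16.9), *Cdca3* (13.4), *Shcbp1* (10.2), *Cit* (9.78), a kinase of cytokinesis, *Melk* (9.77), *Spag5* (9.62) and *Dlgap5* (7.9) were among the highest of these. *Esco2* had 108 CPM in dividing and 5.88 CPM in non-dividing barcodes. The 10 lowest ratios were those of *Mxd4* (0.356), *Prcd* (0.405), *Tspan32* (0.409), *Tmem150a* (0.417), *Pold4* (0.421), *6430548M08Rik* (0.445), *Dbp* (0.45), *Rprm* (0.462), *N4bp2l1* (0.486) and *Mtfr1l* (0.505). *Mxd4*, a MAX partner that opposes MYC, had 32.6 and 91.8 CPM, *Dbp*, a transcription factor of the circadian clock, 14.9 and 33.2 CPM, and *Rprm*, reprimo, linked to arrest in G2, 11.6 and 25.1 CPM. Without the mixed barcodes these 3 ratios were 0.324, 0.476 and 0.482. *Mxd4* had a ratio of 0.59 in interstitial barcodes, *Dbp* 0.546 and *Rprm* 1.19.

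Ribosomal protein genes lay below 1 together, each within 1.5-fold. Of 80 such genes 79 had a ratio below 1, with a median of 0.844 (lowest 0.718, highest 1.07), and together they held 16.8% of UMIs in dividing and 20% in non-dividing barcodes. For all 8389 genes the lower quartile of the ratio was 0.907, the median 1.03 and the upper quartile 1.19, and the share below 1 was not counted. None of the ribosomal genes was lower by 1.5-fold, beside 2.6% of all genes. Their median was 0.823 without the mixed barcodes, 0.835 among barcodes of 10000 to 30000 UMIs and 0.872 in interstitial barcodes. Mitochondrial transcripts had a median share of 11.5% and 11.9% of UMIs. *Lgals7*, listed with coelomic epithelium markers, had 365 and 624 CPM, a ratio of 0.584, and 0.605 without the mixed barcodes, and was the one gene of its list above 10 CPM.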

How the data were processed

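One library of control testis cells, dissociated with trypsin and not sorted, was captured on a Chromium chip. The authors aligned the reads to mm10 (GRCm38) with the reporter sequence added and deposited raw UMI counts per gene and barcode, 22631 genes by 5421 barcodes. The labels list Cell Ranger 3.0.2 and 3.1.0 and the file header names 3.1.0. The later filters, doublet removal and normalization of the study were not applied to the deposited matrix.

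Members and lists were chosen with earlier results of these data known. UMIs were summed over the barcodes of a group and given per 1000000 UMIs (CPM), with exact Poisson intervals, Clopper-Pearson intervals for shares and exact conditional intervals for ratios. PCR copies are collapsed by UMIs, and intervals and floors cover counting error only. Genes at 10 CPM or more over all Sertoli barcodes were compared, and a ratio of 1.5 or its inverse counted as higher or lower. Both groups entered that level, so some genes passed it only through the group where they were higher. With 1 library no test was run. Per list, the 3 genes with the highest level and the 2 with the largest and the 2 with the smallest ratio were named, with the genes of the rule and, outside the lists, the 10 largest and 10 smallest ratios at 20 CPM or more. Other members named were chosen after their values were seen. Not every gene this rule picks is reported here. The ratio code was tested on simulated data. Doublets were scored with 25% artificial doublets, 2000 variable genes, 30 components and 135 neighbours, at a rate of 4%, and were removed in an alternative only. Gene positions are of GENCODE M21 (GRCm38). Alternatives were doublets removed, outliers of depth or mitochondrial share removed, 10000 to 30000 UMIs only, other splits of the division genes, all 8 Sertoli genes, thinning, a mean over barcodes, other floors and folds, and the set without mixed barcodes. Counts were handled with scipy 1.17.1, numpy 2.4.6 and pandas 2.3.3 under Python 3.11.15, doublets with scikit-learn 1.9.0 and plots with matplotlib 3.10.9.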

Additional observations from a re-analysis of the deposited data

How the results depend on the processing

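The directions of the pooled mitosis, pooled replication and pooled Sertoli lists held in the alternatives listed here, but by depth the Sertoli ratio was above 1 at 15000 to 20000 UMIs (1.02) and at 20000 to 30000 (1.15). Of the single cycle and Sertoli lists, the summed ratio of Sertoli transcription factors turned from 1.04 to 0.965 without the mixed barcodes. The ratio of the mitosis lists was 4.78, and 5.03 with doublets removed, 5.001 with outliers removed, 5.06 at 10000 to 30000 UMIs, 5.21 with a split at 10 UMIs or more of *Mki67* and *Top2a*, 6.35 against barcodes with 0, 5.08 with all 8 Sertoli genes, 4.97 without the mixed barcodes (chosen after seeing the data), 4.93 thinned and 4.49 as a mean over barcodes. In the same order, the replication lists had 1.96, and 2.04, 2.05, 2.01, 1.83, 2.43, 1.90, 2.06, 2.09 and 2.10. The Sertoli lists had 0.939, and 0.965 with doublets removed, 0.957 with outliers removed, 0.966 at 10000 to 30000 UMIs, 0.925 against 0, 0.913 with all 8 genes, 0.960 without the mixed barcodes and 0.947 as a mean. The share of dividing barcodes was 26.5%, and 20.1% with the split at 10 or more and 35.3% with all 8 genes. The 653 higher genes became 164 at 50 CPM or more, 1559 with 10 UMIs or more and 316 at a ratio of 2. The 218 lower genes became 41, 968 and 30 under these, 334 with all 8 genes and 330 thinned.

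Of 66 named genes that were higher and 16 that were lower, between 0 and 8 and between 0 and 2 left the threshold in an alternative. Removing doublets turned *Tcf21* (0.562), *Lhx9* (0.861), *Cdh11* (0.778), *Fn1* (0.889) and *Bgn* (0.145) below 1. *Bgn* was also below 1 with outliers removed (0.940), at 10000 to 30000 UMIs (0.858) and without the mixed barcodes (0.246), as was *Tcf21* (0.836) without the mixed barcodes. *Nr2f2* (1.78), named outside the rule and not among these 66, had 0.537 without the mixed barcodes. The cause was not tested. No paired analysis was possible because there was 1 library. Leaving out a replicate was likewise not run. Depth limits the genes under 10 CPM and the shallow barcodes, whose few UMIs of the division genes cannot place them.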
